A study of Mus musculus with 4 samples.

Results

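The nuclear genes of oxidative phosphorylation were followed in gastrocnemius muscle of mice that exercised, carried a tumor, did both or did neither. They were taken by gene symbol, as every gene row whose symbol starts with Nduf and a letter from a, b, c, s or v followed by a digit, with Uqcr, with Cox4 to Cox8 or with Atp5 and a letter, or that reads Sdha, Sdhb, Sdhc or Sdhd. The rule used no measured value and found 84 of 23282 gene rows. By their known place, 35 belong to complex I, 4 to complex II, 8 to complex III, 19 to complex IV and 15 to complex V. The other 3 match by symbol only: Cox7a2l is a supercomplex assembly factor, and Atp5s and Atp5sl are not subunits of ATP synthase. Ndufa4 and Ndufa4l2 were placed with complex IV, where Ndufa4 is now known to sit. Reads were present for 82 of the 84 genes. Cox7b2 and Cox8c, isoforms of the testis, had 0 reads in all 4 libraries.

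The study crossed high-intensity aerobic treadmill exercise with a tumor, for which CT26 cells, a mouse colorectal cancer line, were injected into the tail vein of CDF1 mice. Of the healthy groups, normal control E(-)T(-) did not run and normal exercise E(+)T(-) did. Of the tumor-bearing groups, cancer control, labelled E(-)T(+), did not run and cancer exercise, labelled E(+)T(+), did. All were of the same strain, and each had 1 library of gastrocnemius muscle RNA. Where 4 values are given in group order, the healthy libraries come first and the tumor-bearing ones second, each time control before exercise. The labels give postnatal day 28 for every sample, which may be the age at the start, since the methods give that age at purchase and describe tissue taken at the end of the experiment. The design text speaks of 10 mice a group and the study's own account of 1 representative mouse, so it was not settled whether a library is 1 animal or a pool. As each group had 1 library, differences have no replicate check, no test was possible, and intervals cover counting error only.

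Oxidative phosphorylation moves electrons along the inner mitochondrial membrane. Complex I takes them from NADH and complex II from succinate, both pass them through ubiquinone to complex III, and cytochrome c carries them to complex IV, which reduces oxygen. Complexes I, III and IV pump protons, and complex V, the ATP synthase, makes ATP as the protons return through its membrane ring of c subunits. Striated muscle is known for its own isoforms of some complex IV subunits, among them Cox6a2, Cox7a1 and Cox8b. The c subunit is encoded by 3 genes, Atp5g1, Atp5g2 and Atp5g3, whose mature protein is the same and whose import signals differ.

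The starts of Cox7a1 and its partner Cox7a2, and of Atp5g1, Atp5g2 and Atp5g3, are shown first, because these are the isoform sets whose shares of reads, given further on, lay furthest apart between the libraries in percentage points. The sequences are the 250 bases upstream of the RefSeq transcript start in build GRCm38.p6, the assembly known as mm10, at chr7:30183921-30184170 (plus strand), chr9:79759854-79760103 (minus strand), chr11:96075632-96075881 (minus strand), chr15:102671048-102671297 (minus strand) and chr2:73911327-73911576 (minus strand). The 4 motifs named at the end were searched on both strands, and the capitals mark their matches. In the Atp5g2 promoter GCGCATGC of nuclear respiratory factor 1 lies on both strands with overlap, and in the Atp5g3 promoter AAGGTCA of estrogen-related receptors lies on the reverse strand.
Cox7a1: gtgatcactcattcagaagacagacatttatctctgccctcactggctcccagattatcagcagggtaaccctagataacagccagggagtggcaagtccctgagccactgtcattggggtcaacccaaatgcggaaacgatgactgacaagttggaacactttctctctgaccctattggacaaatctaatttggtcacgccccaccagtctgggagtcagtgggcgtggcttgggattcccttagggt
Cox7a2: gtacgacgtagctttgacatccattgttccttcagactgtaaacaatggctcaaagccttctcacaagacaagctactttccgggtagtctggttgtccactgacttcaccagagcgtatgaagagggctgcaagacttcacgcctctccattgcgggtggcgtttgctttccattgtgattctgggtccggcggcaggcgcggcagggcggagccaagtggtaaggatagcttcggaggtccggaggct
Atp5g1: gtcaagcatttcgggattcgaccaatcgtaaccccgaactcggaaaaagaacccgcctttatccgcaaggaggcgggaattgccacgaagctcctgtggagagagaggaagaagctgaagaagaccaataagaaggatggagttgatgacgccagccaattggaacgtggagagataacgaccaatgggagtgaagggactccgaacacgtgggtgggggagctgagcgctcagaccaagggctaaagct
Atp5g2: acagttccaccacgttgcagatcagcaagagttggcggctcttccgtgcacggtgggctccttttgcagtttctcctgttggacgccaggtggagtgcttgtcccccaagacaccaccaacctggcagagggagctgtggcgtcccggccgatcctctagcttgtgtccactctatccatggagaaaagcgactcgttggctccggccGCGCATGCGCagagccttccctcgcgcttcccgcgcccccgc
Atp5g3: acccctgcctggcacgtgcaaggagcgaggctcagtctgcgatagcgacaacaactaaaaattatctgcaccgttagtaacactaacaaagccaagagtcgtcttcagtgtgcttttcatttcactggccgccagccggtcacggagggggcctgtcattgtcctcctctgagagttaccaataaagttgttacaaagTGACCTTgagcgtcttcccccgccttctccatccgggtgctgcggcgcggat
The Atp5g2 stretch was the richest in G and C, at 62.8%, against 53.6% for Atp5g1, 54.0% for Atp5g3, 51.2% for Cox7a1 and 54.8% for Cox7a2. No motif was matched in the stretches of Cox7a1, Cox7a2 and Atp5g1.

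The libraries held 11269758, 13226128, 10647671 and 11026380 reads in group order. A count of 0 allows a share of up to 2.82e-05% of the reads at most, in cancer control. All 6 muscle fibre markers had reads in every library, and their summed normalized read count ranged from 660000 in cancer control to 1090000 in normal control. Markers of other fibres and cells moved with the groups as well. The 9 slow fibre markers summed to 9910, 16900, 32100 and 18400 in group order, and 9 of 9 were higher in cancer control than in normal control. The 10 fast fibre markers summed to between 920000 in cancer control and 1610000 in normal control, with 7 of 10 lower with the tumor. The 5 white fat markers ranged from 4540 to 15700 (Lep at 0 reads in both tumor libraries), the 5 fibroblast markers from 36100 to 78300, and the 4 red cell markers from 48300 in normal exercise to 459000 in cancer exercise (Slc4a1 at 0 in cancer control). The fibroblast and white fat sums were highest in normal control. With the tumor without exercise 5 of 5 were lower in both sets, with median log2 fold changes of -4.05 and -2.965. With exercise in healthy mice 5 of 5 were again lower in both, with medians of -1.085 and -1.36. The fibroblast sum rests mostly on Dcn, which had -0.71 with the tumor, against -6.28 for Col1a1. The 5 neutrophil markers summed to 68.3, 149, 2620 and 1860 in group order, with 5 of 5 higher with the tumor without exercise, and Ngp had reads in cancer control alone. The 5 keratinocyte markers summed to 197, 195, 475 and 86.8, with 5 of 5 higher with the tumor without exercise and 5 of 5 lower with exercise in tumor-bearing mice. The 4 brown fat markers summed to 323, 178, 586 and 339. With the tumor without exercise Elovl3, Cidea and Dio2 were higher by 2.72, 1.44 and 0.29 on the log2 scale. Ucp1, which defines that tissue, had 0 reads in both of these libraries and 0 or 1 read in every library. The 5 macrophage markers ranged from 2690 to 4760 and the 5 endothelial markers from 2540 to 3280. The part of these shifts in the results below was not tested.

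Together the 84 genes took 6.15%, 5.62%, 4.60% and 5.71% of all reads in group order. The 95% Clopper-Pearson interval of the share ran from 4.59% to 4.62% in cancer control and from 6.14% to 6.17% in normal control, so that cancer control stood below and normal control above the other libraries by far more than counting error. In bulk tissue, fewer fibres rich in mitochondria and less of this RNA in each fibre cannot be told apart. By complex, the share in normal control and cancer control was 1.99% and 1.36% for complex I, 0.197% and 0.139% for complex II, 0.737% and 0.535% for complex III, 1.68% and 1.5% for complex IV, and 1.51% and 1.03% for complex V. With Cox6a2 included complex IV differed least between these libraries in proportion, and in cancer exercise it took 1.74%, the highest of its 4 values. Without Cox6a2 normal control was the highest, and complex IV took 1.4%, 1.21%, 0.984% and 1.21% in group order. Normal control had the highest normalized read count of the 4 libraries for 57 of the 82 genes with reads (69.5%, against 27.1% of all gene rows), and cancer control the lowest for 60 (73.2% against 33.1%). Cancer control was the highest library for 4 genes and cancer exercise the lowest for 1.

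**Figure D1:**
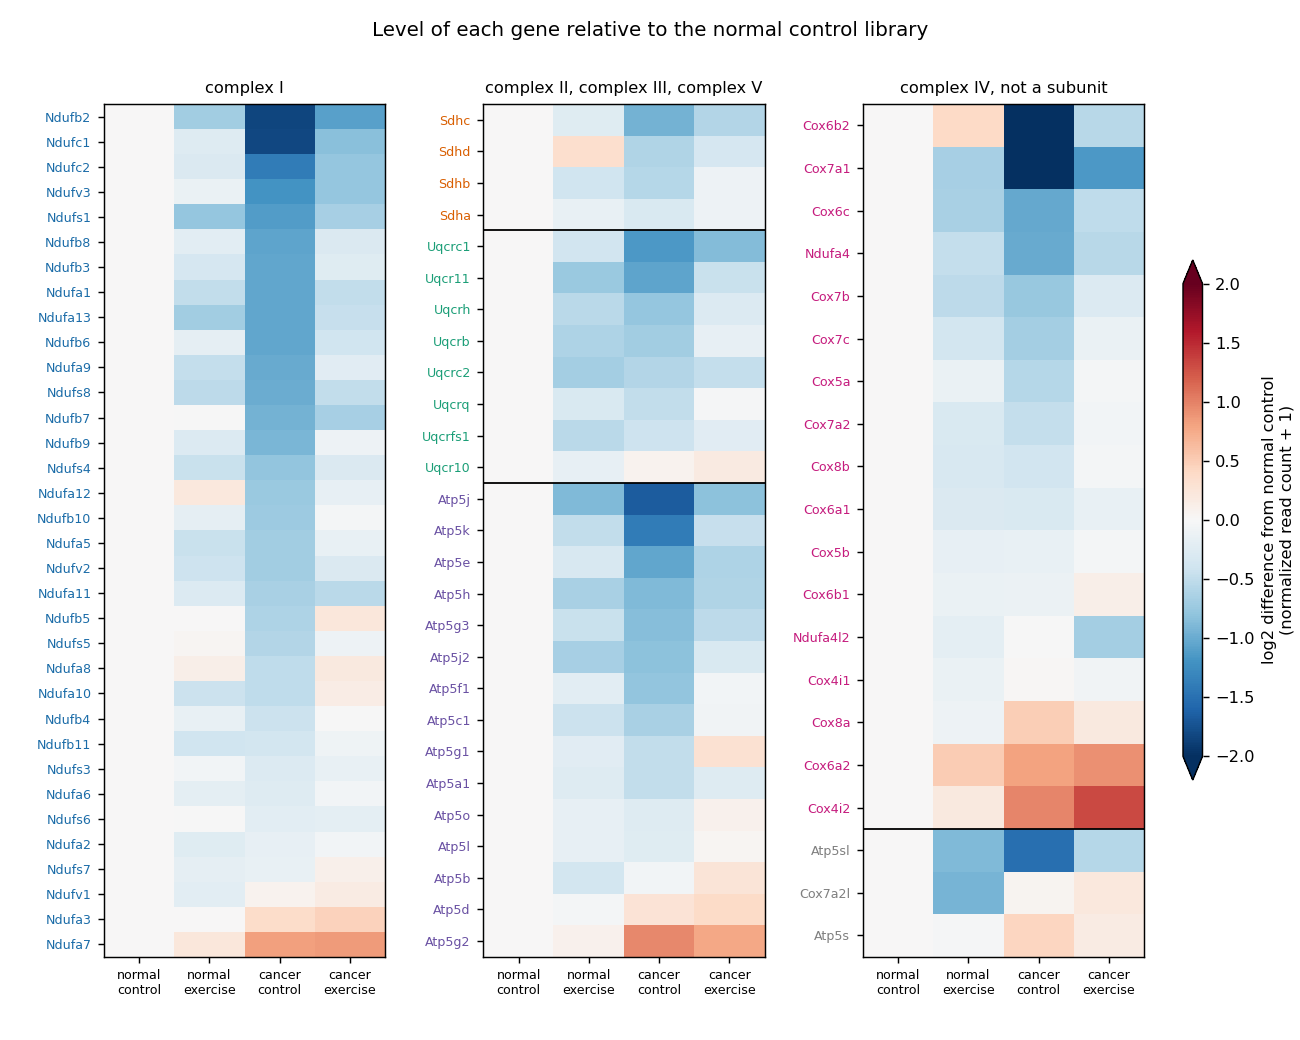
Each row is 1 of 81 genes with reads and each column 1 of the 4 libraries, and the colour is the log2 difference of the normalized read count plus 1 from the normal control library, limited to -2 and 2. Blue is strongest in the cancer control column, where most genes lie below normal control, and Cox4i2, Atp5g2, Ndufa7 and Cox6a2 stand out in red there. The Cox6b2 row rests on 14 reads or fewer per library.

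The tumor without exercise was examined by comparing cancer control with normal control. Respiratory chain transcripts were lower in the tumor-bearing library across all 5 complexes. The median log2 fold change of the 82 genes was -0.61, a level 1.53 times lower, against -0.04 for all gene rows, and 70 of 82 (85.4%) lay below 0 against 51.4% of all gene rows. A gene was called when it differed at least 2-fold on the scale of the normalized read count plus 1, and its normalized read count reached 4 in 1 or both of the libraries compared. By this rule 21 of 82 genes (25.6%) fell with the tumor, near the 24.2% of all gene rows that fell, and 0 rose, against 20.9% of all gene rows. At 1.5-fold, 44 genes (53.7%) were lower against 33.7% of all gene rows, and 4 (4.88%) were higher against 30.6%. The shift was therefore broad and of modest size. The count past 2-fold depended on scaling. Under total count 11 were lower (13.4%, against 23.1% of all gene rows) and 2 higher (2.44% against 22.1%). Median of ratios gave 16 lower (19.5% against 23.7%) and 1 higher (1.22% against 21.5%).

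Within complex I the genes of the membrane arm, which pumps protons, stood lowest. Their median was -0.92 over 19 genes. It was -0.48 for the 10 genes of the N module, which oxidizes NADH, and -0.49 for the 6 genes of the Q module, which passes electrons to ubiquinone. At least 2-fold lower were 8 of 19, 2 of 10 and 1 of 6, against 24.2% of all gene rows. The normalized read count of Ndufb2, an accessory subunit of the membrane arm, was 4036, 2498, 1130 and 1903 in group order. It was lowest in cancer control, with a log2 fold change of -1.84 (95% counting interval -1.94 to -1.74). Ndufc1, another accessory subunit of that arm, read 11420, 9540, 3242 and 6391 and fell by 1.82 on the log2 scale. Both tumor libraries lay below both healthy libraries for Ndufb2 and Ndufc1. Ndufc2 fell by 1.40, and Ndufa1, Ndufa13, Ndufb3, Ndufb6 and Ndufb8, all of the membrane arm, fell by between 1.03 and 1.05 on the log2 scale.

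The 7 nuclear core subunits of complex I, which carry the cofactors and are shared with bacteria, had a median of -0.28 in the tumor comparison. Ndufs1, the largest iron-sulfur subunit, was the core gene that fell past 2-fold, with normalized read counts of 3255, 1894, 1506 and 2044 in group order and a log2 fold change of -1.11. Ndufv1, which holds the flavin that accepts electrons from NADH, read 3324, 2865, 3491 and 3708. Its tumor difference was 0.07 (counting interval 0.0 to 0.14), so it was about level. Ndufv2, also of the N module, had -0.70, and 8 of the 10 N module genes lay below 0. Of the accessory genes outside the membrane arm, Ndufv3 fell by 1.19 and Ndufa9, of the Q module, by 1.01 on the log2 scale. Ndufa7 was the complex I gene with the highest tumor difference at 0.83. Its normalized read count of 3204 in normal control and 3768 in normal exercise stood below the 5680 of cancer control and 5812 of cancer exercise.

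Complex II is the only complex whose subunits are all nuclear, and it is shared with the citric acid cycle. All 4 of its genes lay below 0 in the tumor comparison, with a median of -0.59. Of these, 0 of 4 passed 2-fold, where 24.2% of all gene rows fell past it. Sdha, the flavoprotein that oxidizes succinate, read 4547, 4086, 3670 and 4237 in group order, and its difference of -0.31 was the smallest of the complex. Sdhb, its iron-sulfur partner, had -0.56, and the membrane anchors Sdhd and Sdhc had -0.61 and -0.95. Complex III had a median of -0.64, and 7 of 8 genes were below 0. Uqcrc1, a core protein of that complex, read 3233, 2482, 1455 and 1781 and fell by 1.15 on the log2 scale, and Uqcr11 fell by 1.06. Uqcrfs1, the Rieske iron-sulfur protein, read 7664, 5296, 5776 and 6548 with a tumor difference of -0.41. Both tumor libraries were below both healthy ones for Uqcrc1, while for Uqcrfs1 the normal exercise library was the lowest.

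Complex IV had the smallest median of the 5 complexes with the tumor, -0.38 over 17 genes, and the widest range, from Cox7a1 to Cox4i2 among genes with reads in both libraries. Cox7a1, the muscle isoform of subunit VIIa, gave the largest fall of any member with more than a few reads. Its normalized read count was 9627, 6084, 2253 and 4329 in group order, and its log2 fold change with the tumor was -2.10 (95% counting interval -2.16 to -2.03). Both tumor libraries lay below both healthy ones. Cox6c and Ndufa4 had -1.03 and -1.002. Cox5a, a structural subunit, read 10590, 9654, 7121 and 10340, a tumor difference of -0.57. Cox4i1, the main form of the largest nuclear subunit, was level at 13220, 12080, 13420 and 12650, and its tumor difference was 0.02. Cox6b2, a testis isoform, had 8, 14, 0 and 5 reads in group order. Against a floor of 3 reads a library, and with the 8 reads of normal control taken as exact, cancer control was at least 2.65-fold lower. The counting error of those 8 reads is not in this bound. Cox6b2 counts among the 21 genes above.

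Complex V had a median of -0.65, with 13 of 15 genes below 0. The 7 genes of its stalk and membrane part had the lowest median, -0.82, the 5 genes of the catalytic F1 head -0.49 and the 3 c-ring genes -0.50. Atp5j, coupling factor 6 of the stalk, read 8676, 4714, 2739 and 4938 in group order. It fell by 1.66 on the log2 scale, and normal control stood above the other 3 libraries. Atp5k, subunit e of the membrane part, read 12260, 8706, 4652 and 8895 and fell by 1.40. Atp5e, subunit epsilon of F1, fell by 1.04. The catalytic pair differed from these, since Atp5b (beta subunit) read 13460, 10490, 12930 and 16160 with a tumor difference of -0.06, and Atp5a1 (alpha subunit) read 16200, 13590, 11520 and 13590 with -0.49. Outside the complexes, Atp5sl fell by 1.51 on the log2 scale.

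Just inside the 2-fold limit were Ndufa4 at -1.002 and Ndufa9 at -1.01, and just outside it Ndufs8 at -0.99 and Ndufb7 and Sdhc at -0.95, so the count of 21 depends on small steps around the limit. On the higher side, Cox4i2 at 0.98 (21 and 42 reads), Atp5g2 at 0.96 and Ndufa7 at 0.83 came nearest to it.

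**Figure D2:**
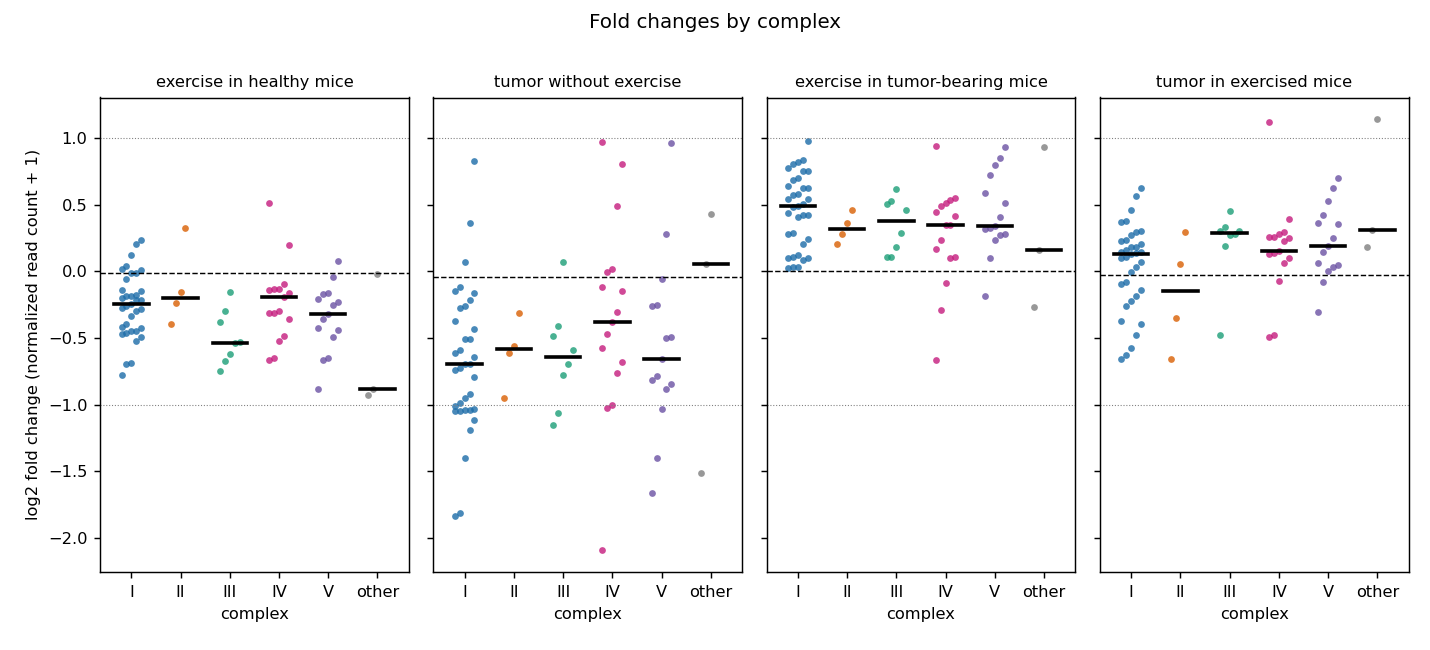
Each point is 1 gene, placed by complex (other marks Cox7a2l, Atp5s and Atp5sl) and by its log2 fold change of the normalized read count plus 1, in each of the 4 comparisons. Black bars are the medians of the complexes, the dashed line is the median of all gene rows, dotted lines mark 2-fold, and Cox6b2 is left out of the points because it had 0 reads in cancer control. The points lie mostly below the dashed line for the tumor without exercise and mostly above it for exercise in tumor-bearing mice. These comparisons share the cancer control library, with opposite sign.

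Next, cancer exercise was set against cancer control to see what exercise did in the presence of the tumor. Respiratory chain transcripts were higher with exercise in nearly every member, by a modest amount. The median log2 fold change was 0.42, a level 1.34 times higher, against 0.01 for all gene rows, and 77 of 82 genes (93.9%) lay above 0 against 50.2% of all gene rows. All 35 genes of complex I, all 4 of complex II and all 8 of complex III were above 0, with medians of 0.49, 0.32 and 0.38. Complex IV had 14 of 17 above 0 and a median of 0.35, and complex V 14 of 15 and a median of 0.34. By the 2-fold rule 1 gene rose, against 15.6% of all gene rows, and 0 fell, against 15.1%. The 1 gene was Cox6b2 with 0 and 5 reads. With the 5 reads taken as exact it was at least 1.69-fold higher against the floor, so that 0 genes passed 2-fold with Cox6b2 at this bound. At 1.5-fold, 21 genes (25.6%) were higher against 25.2% of all gene rows, and 1 was lower against 24.3%.

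Among the parts of complex I the membrane arm moved furthest, with a median of 0.63. At least 1.5-fold higher were 11 of its 19 genes, against 25.2% of all gene rows. This comparison and that of the tumor without exercise share the cancer control library, with opposite sign. A gene that read low in that library for any reason is lower in the one and higher in the other. The likeness of the 2 rankings is therefore no second observation. Ndufc1, with 3242 in cancer control and 6391 in cancer exercise, had the largest difference short of 2-fold, 0.98 (95% counting interval 0.92 to 1.04). Cox7a1 followed with 0.94 and Atp5sl with 0.94, and Atp5k and Atp5j had 0.94 and 0.85. Their cancer exercise values remained below normal control, at 6391 against 11420 for Ndufc1 and 4329 against 9627 for Cox7a1. The catalytic and core subunits differed less, with Ndufv1 at 0.09, Sdha at 0.21, Uqcrfs1 at 0.18, Atp5a1 at 0.24 and Atp5b at 0.32, while Ndufs1 had 0.44, Sdhb 0.46 and Cox5a 0.54. The 5 genes below 0 were Ndufa4l2 at -0.67 (89 and 55 reads), Cox8a at -0.29, Atp5s at -0.27, Atp5g2 at -0.18 and Cox4i1 at -0.09.

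In the healthy pair, normal exercise was set against normal control. Most members were lower in the exercised library, and none of the 82 passed 2-fold. The median log2 fold change was -0.28, a level 1.21 times lower, against -0.01 for all gene rows, and 71 of 82 genes (86.6%) lay below 0 against 50.7% of all gene rows. By the 2-fold rule 0 genes rose, against 9.44% of all gene rows, and 0 fell, against 12.1%. At 1.5-fold, 13 genes (15.9%) were lower against 20.4% of all gene rows, and 0 were higher against 17.5%. Complex III stood lowest, with 8 of 8 genes below 0 and a median of -0.54, against -0.25 for complex I, -0.20 for complex II, -0.20 for complex IV and -0.32 for complex V. Library sizes taken as total reads moved the median of all gene rows to 0.15 in this comparison and to -0.19 for the tumor in exercised mice, and the member medians became -0.12 and 0.00. Relative to all gene rows, the members were 0.27 lower in the first case and 0.19 higher in the second under both scalings. A change of scaling moves members and all gene rows alike, so this sameness is no check of the result. Signs near 0 depended on the scaling in healthy mice. Cox4i1, Cox5a, Cox6b1, Cox8a, Sdha, Ndufb7 and Ndufv3 lay below 0 in the main setting and above 0 under total reads.

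Cox7a2l, the supercomplex factor, had the lowest value with exercise in healthy mice. It read 3893, 2048, 4055 and 4528 in group order, with a difference of -0.93 (95% counting interval -1 to -0.85). The normal exercise library stood apart, and the other 3 lay close together. Atp5sl and Atp5j both had -0.88, and Ndufs1 had -0.78, the lowest of complex I. Cox6a2, the muscle isoform of subunit VIa and the member with the most reads in all 4 libraries, had the highest difference, 0.51. It read 33500, 47840, 58660 and 63000 in group order, so normal control was its lowest library. Sdhd had 0.33 and Ndufa7 0.23.

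Exercise and the tumor were also set against each other. In 67 of 82 genes (81.7%, against 26.4% of all gene rows) the exercise difference was below 0 in healthy mice and above 0 in tumor-bearing mice. These comparisons share no library. The count of 67 depends on scaling, since genes near 0 in healthy mice changed sign under total count. The median of each complex kept its sign in both comparisons under that scaling. No gene could be at least 2-fold and opposite in both comparisons, since 0 of 82 passed 2-fold with exercise in healthy mice. The Pearson correlation of the exercise differences over the 81 members whose normalized read count averaged 16 or more (mean taken on the log2 scale) was -0.36 and Spearman's rho -0.39, against -0.03 and -0.04 over all gene rows. Genes of 1 library share its depth and its scaling, so these coefficients describe the 4 libraries and carry no test.

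Finally, cancer exercise was set against normal exercise, the tumor difference among exercised mice. Here the median of the members was 0.16, against -0.03 for all gene rows. Above 0 lay 59 genes (72.0%, against 48.5% of all gene rows) and below it 22 (26.8% against 51.5%). These signs depend on scaling. Under total count the member median was 0.003, against -0.19 for all gene rows, and that of complex I was -0.022. By the 2-fold rule 2 genes rose (2.44%, against 13.9% of all gene rows) and 0 fell, against 16.3%. At 1.5-fold, 5 genes were higher against 22.9% of all gene rows, and 4 were lower against 26.2%. The genes that rose were Cox7a2l with 1.14, for which normal exercise was the lowest library, and Cox4i2 with 1.12, which rested on 32 and 53 reads. Atp5g2 at 0.70, Ndufa7 at 0.63 and Atp5b at 0.62 came next. Sdhd at -0.66, Ndufb7 at -0.66 and Ndufv3 at -0.63 were lowest among genes with more than a few reads. Complex III had the highest median of the 5 complexes, 0.29, and complex II the lowest, -0.15.

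The tumor comparisons with and without exercise share no library either. Over the same 81 members the Pearson correlation of the tumor differences was 0.60 and Spearman's rho 0.56, against 0.57 and 0.52 over all gene rows, so the order of the members was about as alike as that of genes in general. A count of 33 of the 81 (40.7%) had the same sign in both, against 68.2% of all gene rows. Cox7a1 had -2.10 without exercise and -0.49 with it, Ndufc1 -1.82 and -0.58, and Ndufb2 -1.84 and -0.39. The genes lowest with the tumor were thus also below 0 in the exercised pair, by less, while Atp5j had -1.66 and 0.07 and Atp5k -1.40 and 0.03. Whether the tumor difference itself differs with exercise was not tested.

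**Figure D3:**
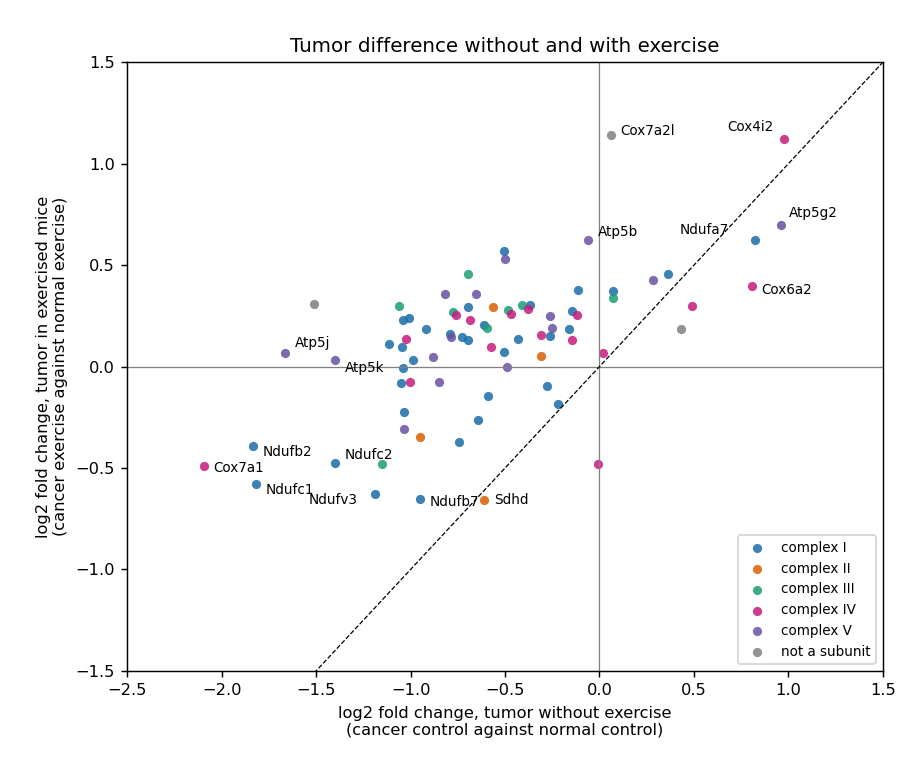
Each point is 1 of 81 genes, with the log2 fold change of the tumor without exercise on the horizontal axis and in exercised mice on the vertical axis. The dashed line marks equal values and colours mark the complexes. Most points lie above the dashed line and left of 0, with Cox7a1, Ndufb2 and Ndufc1 at the lower left and Cox4i2, Atp5g2, Ndufa7 and Cox6a2 at the upper right.

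Isoform pairs were compared as shares of their summed reads in each library. A share does not depend on library scaling. Its size depends on how well the 3′ end of each gene is captured, which differs between genes, and that capture cancels in the difference of the log2 fold changes of a pair. Cox7a1 made up 31.9% of the reads of Cox7a1 and Cox7a2 in normal control (95% interval 31.4 to 32.4) and 26.9% after exercise. With the tumor it made up 13.2% (12.7 to 13.7), and 17.9% with tumor and exercise. The muscle isoform thus held a smaller share in both tumor libraries, and the widely expressed Cox7a2 had a tumor difference of -0.47. Cox8b, the muscle isoform of subunit VIII, made up 88.5%, 86.9%, 80.8% and 86.7% of Cox8b and Cox8a reads in the same order. It was lowest in cancer control, where Cox8a was higher by 0.49 and Cox8b lower by 0.38 on the log2 scale than in normal control.

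Cox6a2 went the other way. Its share of Cox6a2 and Cox6a1 reads was 95.5% (95% interval 95.2 to 95.7), 97.4%, 97.9% and 97.8% in group order. The difference of the log2 fold changes with the tumor was 1.12 for Cox6a2 over Cox6a1, -1.62 for Cox7a1 over Cox7a2 and -0.87 for Cox8b over Cox8a, so the muscle isoforms of complex IV did not move as 1 block. Cox4i2, an isoform known from lung and from low oxygen, was rare throughout. It held 0.169% (0.104 to 0.258), 0.214%, 0.334% (0.241 to 0.451) and 0.452% (0.339 to 0.590) of Cox4i2 and Cox4i1 reads in group order, and the intervals of normal control and cancer exercise did not overlap. Ndufa4l2, also known as a gene of low oxygen, held 0.740%, 0.901%, 1.47% and 0.678% of Ndufa4l2 and Ndufa4 reads, and its cancer control share came from a lower Ndufa4, since Ndufa4l2 itself had 90 and 89 reads in the control libraries. Cox6b2 held at most 0.101% of Cox6b2 and Cox6b1 reads, in normal exercise, and Cox7b2 0 of 14176 to 24155 reads of its pair.

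The c-ring genes shifted against each other. Atp5g2 held 4.93% of their reads (95% interval 4.71 to 5.15), 6.81%, 15% (14.5 to 15.4) and 10.4% in group order. Its normalized read count was 1935, 2044, 3771 and 3319, higher in both tumor libraries than in both healthy ones. Atp5g3, the main form in muscle here, held 83.4%, 80.2%, 72.2% and 71.9%, and read 32770, 24100, 18200 and 22850. Atp5g1 held 11.6%, 13%, 12.8% and 17.7%, highest in cancer exercise. Of the c-ring promoters shown above, those of Atp5g2 and Atp5g3 each held 1 of the motifs, a different one. Processed copies and close paralogs exist for several of these genes, and the handling of reads that match several places is not given in the sources used here, so the split within a set is uncertain to that extent.

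**Figure D4:**
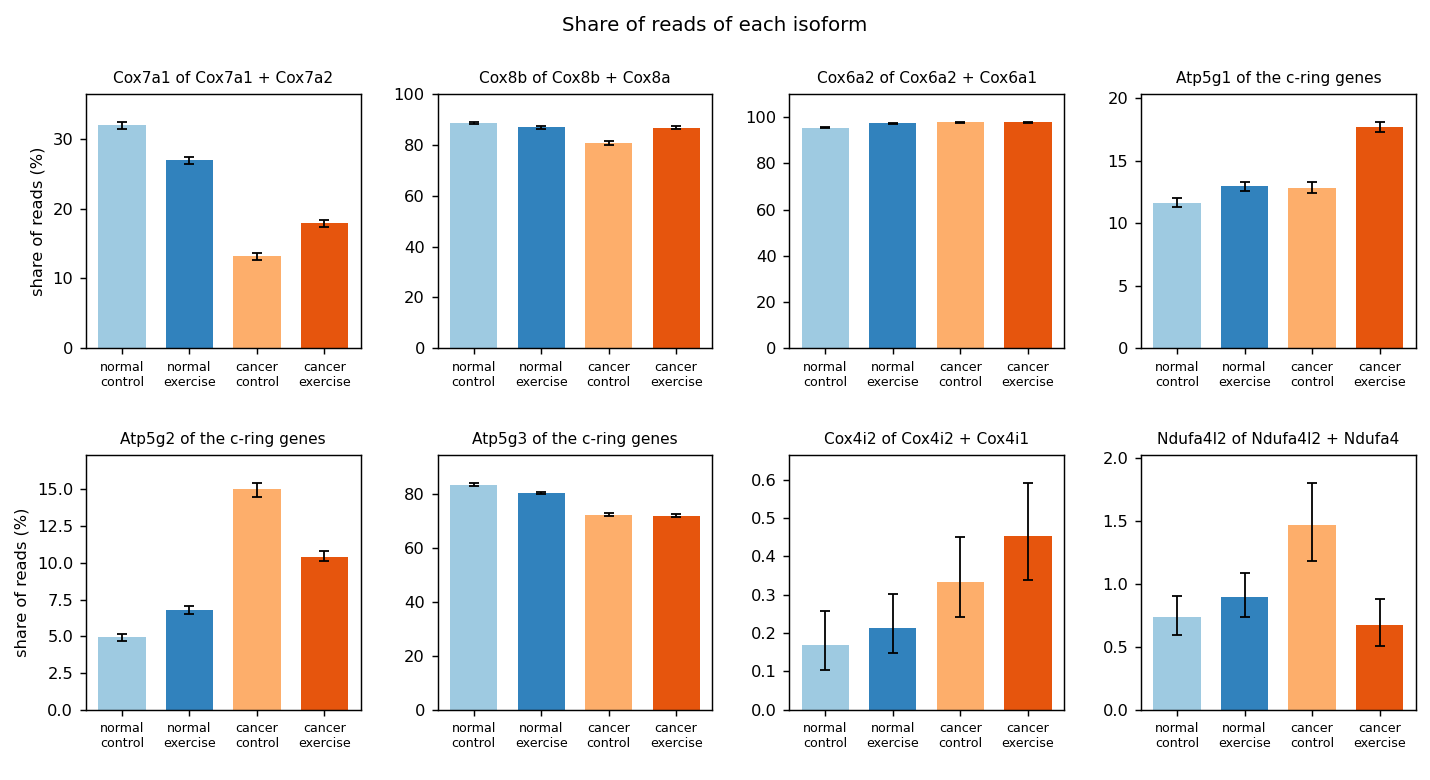
Bars give the share of reads of 1 isoform within its pair or within the 3 c-ring genes, in percent, for the 4 libraries, and whiskers are 95% Clopper-Pearson intervals of counting error. Each panel has its own axis from 0. Between normal control and cancer control, the Cox7a1 bar goes from 31.9% to 13.2% and the Atp5g2 bar from 4.93% to 15%.

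Genes that act with the respiratory chain but do not match the symbol rule were taken from lists. Of the 5 further subunits or carriers found, all 5 fell past 2-fold with the tumor, against 24.2% of all gene rows, with a median of -1.25. Cycs, the cytochrome c that links complexes III and IV, read 9101, 5784, 2591 and 5322 in group order. Its log2 fold change was -1.81 for the tumor and 1.04 for exercise in the tumor-bearing pair. Cyc1, the cytochrome of complex III, fell by 1.76, and Ndufab1, Usmg5 and 2010107E04Rik by 1.25, 1.13 and 1.09 on the log2 scale. None of the mitochondrial genome's own subunit genes was analysed here.

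The 15 assembly factors of complex I had a median of -1.22 with the tumor and 0.84 with exercise in tumor-bearing mice, with 9 of 15 falling past 2-fold in the first (24.2% of all gene rows) and 4 of 15 rising in the second (15.6%). The lowest tumor differences were those of Ndufaf5 at -3.60 and Timmdc1 at -2.48. The 10 factors of complexes II and III had -1.15 and 0.64, the 25 of complex IV -0.40 and 0.50, and the 4 of complex V, its inhibitor Atpif1 included, -0.78 and 0.60. Complex IV thus had the smallest tumor median among both subunits and assembly factors. The 13 citric acid cycle genes had -0.41 and 0.33, and 3 of 13 fell past 2-fold with the tumor, a share near that of all gene rows. These were Idh3a at -1.82, Suclg1 at -1.33 and Sucla2 at -1.30. Of 11 genes of energy transfer, 4 fell past 2-fold, against the same 24.2%, and the median was -0.60, with Slc25a4, the muscle ATP and ADP carrier, at -1.15, Ckmt2, the mitochondrial creatine kinase, at -2.27 and Mb, myoglobin, at -2.001. The list called mitochondrial transcription, of 8 genes, had a median of 0.44, with 5 genes above 0 and 3 below. Those below were Tfb1m at -1.55, Tfam at -1.29 and Polrmt at -0.06. Nrf1 at 0.98 and Gabpa at 1.25, which act on nuclear promoters, were among those above, so the median does not describe the mitochondrial factors alone. Slow fibre markers, given above, were higher in cancer control while most of these oxidative genes were lower.

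**Figure D5:**
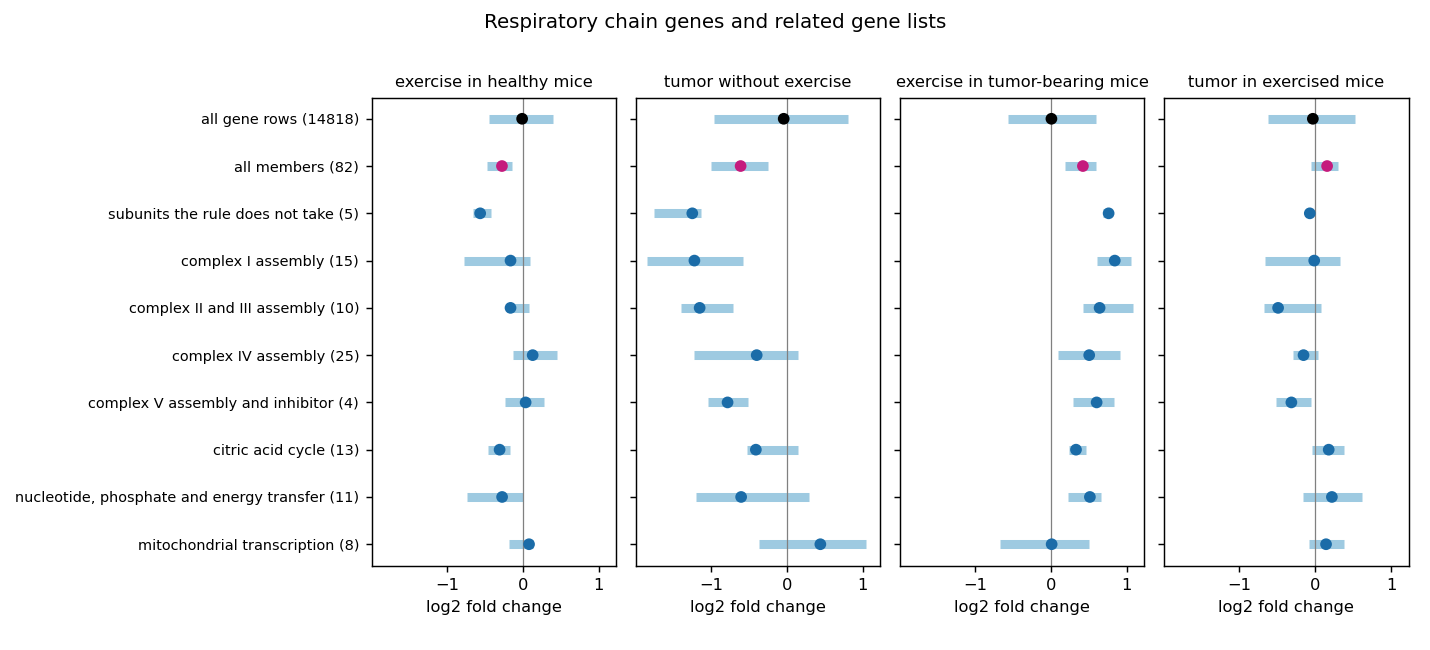
Points are the median log2 fold change and bars the middle 50% of the genes of each list, in the 4 comparisons, with the number of genes that met the minimum for the tumor without exercise in brackets. "All members" are the respiratory chain genes of the symbol rule and "all gene rows" the whole library. Every list of subunits and assembly factors lies left of 0 for the tumor without exercise and right of 0 for exercise in tumor-bearing mice. Both comparisons use the cancer control library, with opposite sign.

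Promoter letters were described for the 66 members found in the RefSeq table, which had 71 promoters of 250 bases before and 50 after the start. The letters AAGGTCA, known as a site of estrogen-related receptors, was present on either strand in 11.3% of them, against 4.72% of 32851 promoters of all genes. GCGCATGC of nuclear respiratory factor 1 was in 14.1% against 2.71%, CCGGAAG of ETS factors such as GABP in 22.5% against 8.86%, and AAGATGG of YY1 in 14.1% against 6.34%. The 8 estrogen-related receptor matches are shown with up to 10 bases on each side, ordered by the tumor difference, with the motif in capitals and in the direction of the gene. They lie in GRCm38.p6 at chr6:39592374-39592400 for Ndufb2, chr5:108434360-108434386 for Atp5k, chr2:174464061-174464087 for Atp5e, chr2:73911362-73911388 for Atp5g3, chr9:50603800-50603823 for Sdhd, chr4:123718398-123718424 for Ndufs5, chr16:37654407-37654433 for Ndufb4, chr9:44920739-44920765 for Atp5l.
Ndufb2: gagcagcagtAAGGTCAgccaagagca
Atp5k: ttccggcgcgAAGGTCAcggacaaaat
Atp5e: tactcaggccTGACCTTcctgctgccg
Atp5g3: tgttacaaagTGACCTTgagcgtcttc
Sdhd: ggttgtagagTGACCTTgagccct
Ndufs5: ttctcgagtgTGACCTTgctcaagtag
Ndufb4: cctgagcctgAAGGTCAgactcgagag
Atp5l: aggggcagccTGACCTTggaaatgggg
The first of these genes, Ndufb2, had the lowest tumor difference of complex I, and Atp5l, the last, had -0.25. The 8 genes with this match had a tumor median of -0.73 against -0.64 for the 57 measured genes without it, and the medians were 0.42 and 0.45 for exercise in tumor-bearing mice. For the other motifs the tumor median with and without the match was -0.54 and -0.68 for GCGCATGC (10 genes with it), -0.83 and -0.61 for CCGGAAG (16 genes) and -0.81 and -0.61 for AAGATGG (10 genes). A match is a description of the letters and not of binding. Members not found in the table include Atp5a1, Atp5f1, Atp5s, Atp5sl, Cox4i1, Cox4i2, Cox6a2, Cox6c, Cox8c, Ndufa2, Ndufa4l2, Ndufb9, Ndufs1, Sdhc, Uqcrb, Uqcrc2 and Uqcrq.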

How the data were processed

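RNA of the gastrocnemius muscle was extracted with TRIzol and sequenced from 4 QuantSeq 3′ libraries, 1 per group. Groups were taken from the sample titles. According to the methods and the submitters' processing notes, the authors aligned reads with Bowtie2 to mm10, counted them per gene with bedtools and applied quantile normalization with edgeR. Tool versions, the annotation and the handling of strand and of reads that match several genes are not given in the sources used here. The deposited files hold the normalized read count plus 1 on a log2 scale, for 23282 rows with 23238 symbols, none of which repeats a member. They are not raw counts, so the differences of the deposited log2 values are the fold changes, and they understate changes of low genes.

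Whole reads were rebuilt from the steps of the low values (1 scaling factor per library, dispersion 0.34). With this model 100% of the values came within 0.0006, and the largest relative error of a high count was 0.0347%. Rebuilt reads gave depths, shares and 95% Clopper-Pearson intervals, and the steps were tested on simulated data. A count of 0 was set to 3 reads for fold bounds.

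Genes were called at 2-fold where the normalized read count reached 4. Genes named are those called, the 3 highest and 3 lowest of each comparison with at least 16, the isoform sets and 9 central subunits, and up to 5 others of each related list, named for their role or value after the values were seen. The members and lists were chosen with earlier results of these data known. The alternatives tried were 1.5-fold, a pseudocount of 0.5 or 4, a minimum of 16 or none, scaling by total count, median of ratios or TMM (trimmed mean of M values), and leaving out the 3 non-subunits. Python 3.11.15, numpy 2.4.6, pandas 2.3.3 and SciPy 1.17.1 were used. Values of 1 member are not reported here by name.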

Additional observations from a re-analysis of the deposited data

Results flagged for a closer look

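The exercise difference went opposite ways in healthy and in tumor-bearing mice for the members as a whole, for each complex and for several related lists. The values here are log2 differences: the fold change of exercise among tumor-bearing mice, less its value among healthy ones. Whether these differences exceed the spread between animals was not tested, because each group had 1 library. Under total count scaling the medians of all members and of each complex kept their opposite signs. Those of complexes II and IV then lay close to 0 in healthy mice. The difference was 0.70 for the median over all members, 0.74 for complex I, 0.52 for complex II, 0.91 for complex III, 0.54 for complex IV and 0.66 for complex V. It was 1.32 for the further subunits and carriers, 1.003 for complex I assembly factors, 0.80 for those of complexes II and III, 0.64 for the citric acid cycle and 0.79 for energy transfer.

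Among the 47 named members, 17 differed by at least 1.25-fold in opposite directions with counting intervals that left out 0, a limit chosen after the values were seen. Over all members, named or not, 27 met these limits, 11 of complex I, 1 of complex II, 3 of complex III, 5 of complex IV, 6 of complex V and 1 that is no subunit. The share of all gene rows that met the same limits was not taken. Neither count can therefore be set against genes in general. The largest named values were those of Atp5sl at 1.82, Atp5j at 1.73 and Cox7a1 at 1.60. The other named genes of complex I were Ndufb2 at 1.44, Ndufa13 at 1.27, Ndufa9 at 1.25, Ndufs1 at 1.22, Ndufb3 at 1.15 and Ndufa1 at 1.03. Those of complexes II and III were Sdhb at 0.86 and Uqcr11 at 1.36. Those of complex IV were Cox6c at 1.16, Cox7b at 1.01 and Ndufa4 at 0.93. Those of complex V were Atp5k at 1.43, Atp5g3 at 0.77 and Atp5b at 0.68.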

How the results depend on the processing

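Medians of all members are given in the order exercise in healthy mice, tumor without exercise, exercise in tumor-bearing mice and tumor in exercised mice. Total count scaling gave -0.12, -0.54, 0.35 and 0.003. It called 2 higher and 11 lower with the tumor without exercise (22.1% and 23.1% of all gene rows). With the tumor in exercised mice it called 0 higher and 1 lower (11.7% and 19.3%), and the complex I median was reversed at -0.022. Median-of-ratios scaling gave medians of -0.58 for the tumor without exercise, with 1 higher and 16 lower (21.5% and 23.7% of all gene rows), and 0.39 for exercise in tumor-bearing mice. No minimum gave -0.27, -0.60, 0.42 and 0.15. A minimum of 16 left 0 higher with exercise in tumor-bearing mice, a pseudocount of 0.5 gave 1 lower with the tumor in exercised mice, and without the 3 non-subunits the last median was 0.15. At 1.5-fold the counts were 13 lower, then 4 higher and 44 lower, then 21 higher and 1 lower, then 5 higher and 4 lower. TMM scaling moved none of the 220 values computed. Its factors lay within 0.0096% of those fitted to the deposited values, so it repeated the main setting and is no separate check. The isoform shares did not move when taken from deposited values, and could hardly do so, since the genes of a pair share the factor of their library. The settings for complexes and single genes were added after the data were seen. No paired analysis was possible because each group had 1 library. Depth limits Cox4i2, Cox6b2 and Ndufa4l2, which had 103 reads or fewer per library. Without replicates, the spread between animals is unknown for every value.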
